A study of Rattus norvegicus with 8 samples.

Results

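N27 cells treated with 3-NPA were compared with control cells on 4 single-colour expression arrays, 2 per group, out of the 8 arrays of the series. N27 is an immortalised line derived from rat midbrain at embryonic day 12, and the labels describe it as dopamine producing. The remaining 4 arrays measured the same line after 150 µM Mn and after 250 µM MPP+, each for 48 h, with 2 arrays per agent. For 3-NPA the labels name neither the dose nor the duration, and a vehicle is named for neither group. They also do not say whether the 2 arrays of a group came from separate cultures. The p-values below therefore measure the spread between these arrays, which may be technical. Arrays were chosen by title, and genes by whether their probe was marked well above background on both control arrays or on both 3-NPA arrays. This left 16418 genes, of which 11838 carried a gene symbol.

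3-NPA is read here as 3-nitropropionic acid, a toxin that inactivates succinate dehydrogenase, the enzyme that oxidises succinate in the citric acid cycle and passes the electrons to the respiratory chain as complex II. Given to animals it lesions the striatum, and it is used to model Huntington's disease, whereas MPP+ inhibits complex I and is used to model Parkinson's disease. Cells under mitochondrial stress are known to activate the transcription factor ATF4, which raises amino acid transport and synthesis. Oxidative or electrophile stress is known to activate NRF2, which raises antioxidant enzymes.

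Levels are given as log2 intensity relative to the 75th percentile of the same array, so that 0 is the 75th percentile and 1 unit is a doubling. A change is the mean of the 3-NPA arrays minus the mean of the control arrays, ± its standard error in a limma fit over all 8 arrays. A gene was called where the Benjamini-Hochberg adjusted p over all tested genes was below 0.05. Levels of different genes come from different probes and are not compared with each other.

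Of the 16418 genes, 6545 (39.9%) were called, 3833 (23.3%) higher and 2712 (16.5%) lower with 3-NPA. The 3-NPA arrays did not overlap the control arrays for 11935 genes (72.7%). Under this filter large changes were mostly rises, with 1541 genes called at least 2-fold higher and 471 at least 2-fold lower. The filter admitted 2824 genes not well above background on either control array, of which 1250 were called higher. Only 3 genes were not well above background on either 3-NPA array, and all 3 were called lower. The 2-fold counts include such genes. Both 3-NPA arrays stood apart from the other 6 on the first principal component, which held 45.6% of the variance. They scored 62.6 and 62.8 there, against -30.7 to -11.9 for the control, Mn and MPP+ arrays. These are bulk RNA measurements of 1 cell line, in which fewer cells of a kind and less RNA per cell cannot be told apart. The share of rises among called genes varied with the scaling and the filter. It stood at 58.6% with the 75th percentile, 43.0% with the median of each array, 68.9% with the spike-in spots, 47.5% over probes well above background on all 4 arrays and 29.9% without a filter on dim probes. The median change over all tested genes was 0.05, and -0.09 with median scaling. Leaving out 3-NPA replicate 1 or 2 lowered the number called to 3478 or 3768, and spike-in scaling to 3681.

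The control arrays had a higher background than the 3-NPA arrays. Among spots not well above background, the median intensity was 10.1 and 11 in the control arrays and 3.25 and 2.72 in the 3-NPA arrays. The control arrays had 34060 and 32711 spots well above background, and the 3-NPA arrays 40345 and 41354. The part of this difference in the rises of dim genes was not tested. For the 2824 genes dim on both control arrays, of which 1250 were called higher, the change is given as "at least" a fold, measured against the lowest signal that was well above background on each control array. Values after another background correction (normexp) are given wherever they lay more than 1.5 times closer to 0. The 3-NPA arrays were also extracted from their scan in a later software run than the other 6, so that extraction run and treatment cannot be told apart.

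**Figure D1:**
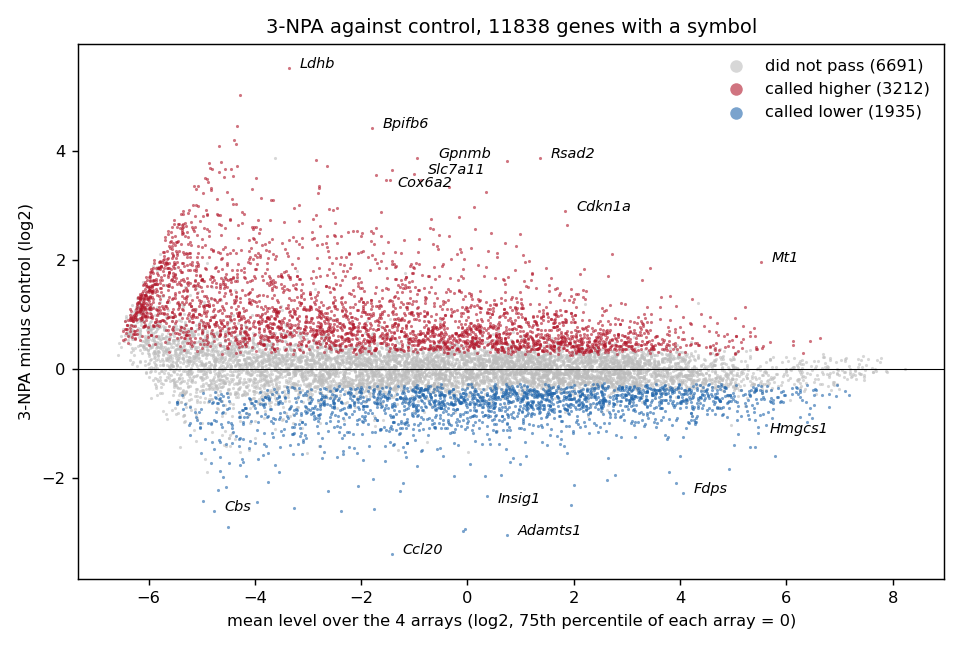
Change between 3-NPA and control (vertical axis, log2) against the mean level over the 4 arrays (horizontal axis, log2 relative to the 75th percentile) for the 11838 genes with a symbol. Red points are the 3212 genes called higher, blue points the 1935 called lower and grey points the 6691 that did not pass; the largest changes are rises at low and middle levels.

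The largest rises, with genes dim in control ranked at their bound, were found in genes of unrelated functions. Ldhb, which encodes the B subunit of lactate dehydrogenase, lay at -5.97 and -6.26 on the control arrays, where it was not well above background, and at -0.65 and -0.54 on the 3-NPA arrays. Its level was at least 16.1-fold higher with 3-NPA (fitted change 5.52 ± 0.13, adjusted p = 4.78e-05, normexp change 3.15). The Mn arrays, at -5.49 and -5.71, and the MPP+ arrays, both at -5.54, lay below the lowest signal well above background on the control arrays (-4.79 and -4.42), so no difference from control is given for them. The 3-NPA arrays were 5.01 ± 0.13 above Mn and 4.95 ± 0.13 above MPP+. A single probe measured Ldhb. It lies on the minus strand of rn4 at chr4:180061921-180063949, a span longer than the probe itself, so that it joins separate exons. Its sequence is shown because Ldhb was higher with 3-NPA than in each of the other 3 groups.
Ldhb probe: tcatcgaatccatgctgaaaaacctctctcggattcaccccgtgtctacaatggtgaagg

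Ngfr, the p75 neurotrophin receptor, was at -3.25 and -3.24 in control and at 0.41 and 0.40 with 3-NPA, a 12.6-fold rise (3.66 ± 0.09, adjusted p = 4.78e-05). The Mn arrays lay at -3.58 and -3.41 and the MPP+ arrays at -2.86 and -2.85, so that the 3-NPA arrays stood alone. The Ngfr probe is at chr10:84263082-84263141 (rn4, minus strand). Bpifb6, of the family of BPI-fold lipid-binding proteins, rose 21.5-fold (4.43 ± 0.12). Gpnmb, a transmembrane glycoprotein of lysosomes and melanosomes, rose 14-fold, from -1.15 and -1.16 to 2.69 and 2.61. Mgmt, which removes alkyl groups from guanine in DNA, rose 13.2-fold (3.73 ± 0.29, normexp 2.49). Afp, alpha-fetoprotein, rose 11.9-fold and Pvalb, the calcium buffer parvalbumin, 11-fold. Mmp17, a membrane-type metalloproteinase, rose by 3.32 ± 0.13 on the log2 scale (normexp 2.24).

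Ccl20, a chemokine, had the largest fitted fall of the genes with a symbol. It was at 0.07 and 0.49 in control and at -3.05 and -3.19 with 3-NPA, a 10.6-fold fall (change -3.40 ± 0.16, adjusted p = 9.69e-05), while the Mn arrays (0.04 and 0.14) and the MPP+ arrays (-0.18 and -0.29) did not pass against control. Its probe is at chr9:82443354-82443413 (rn4, plus strand). Adamts1, a secreted metalloproteinase, fell 8.25-fold, from 2.29 and 2.24 to -0.86 and -0.71. The core histone genes Hist1h2bq and Hist1h2bf fell by 2.98 and 2.94 on the log2 scale. Complement component C5 (-2.90 ± 0.19, normexp -1.31) and Cbs, cystathionine beta-synthase (-2.60 ± 0.14, normexp -1.0), fell from levels already low in control. The kininogen genes Kng2 and Kng1 changed by -2.59 ± 0.22 and -2.55 ± 0.19 (Kng1 normexp -1.62), and their near-identical sequences may share signal. Id2, an inhibitor of basic helix-loop-helix transcription factors, fell 5.63-fold, from 3.07 and 3.32 to 0.77 and 0.63.

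**Figure D2:**
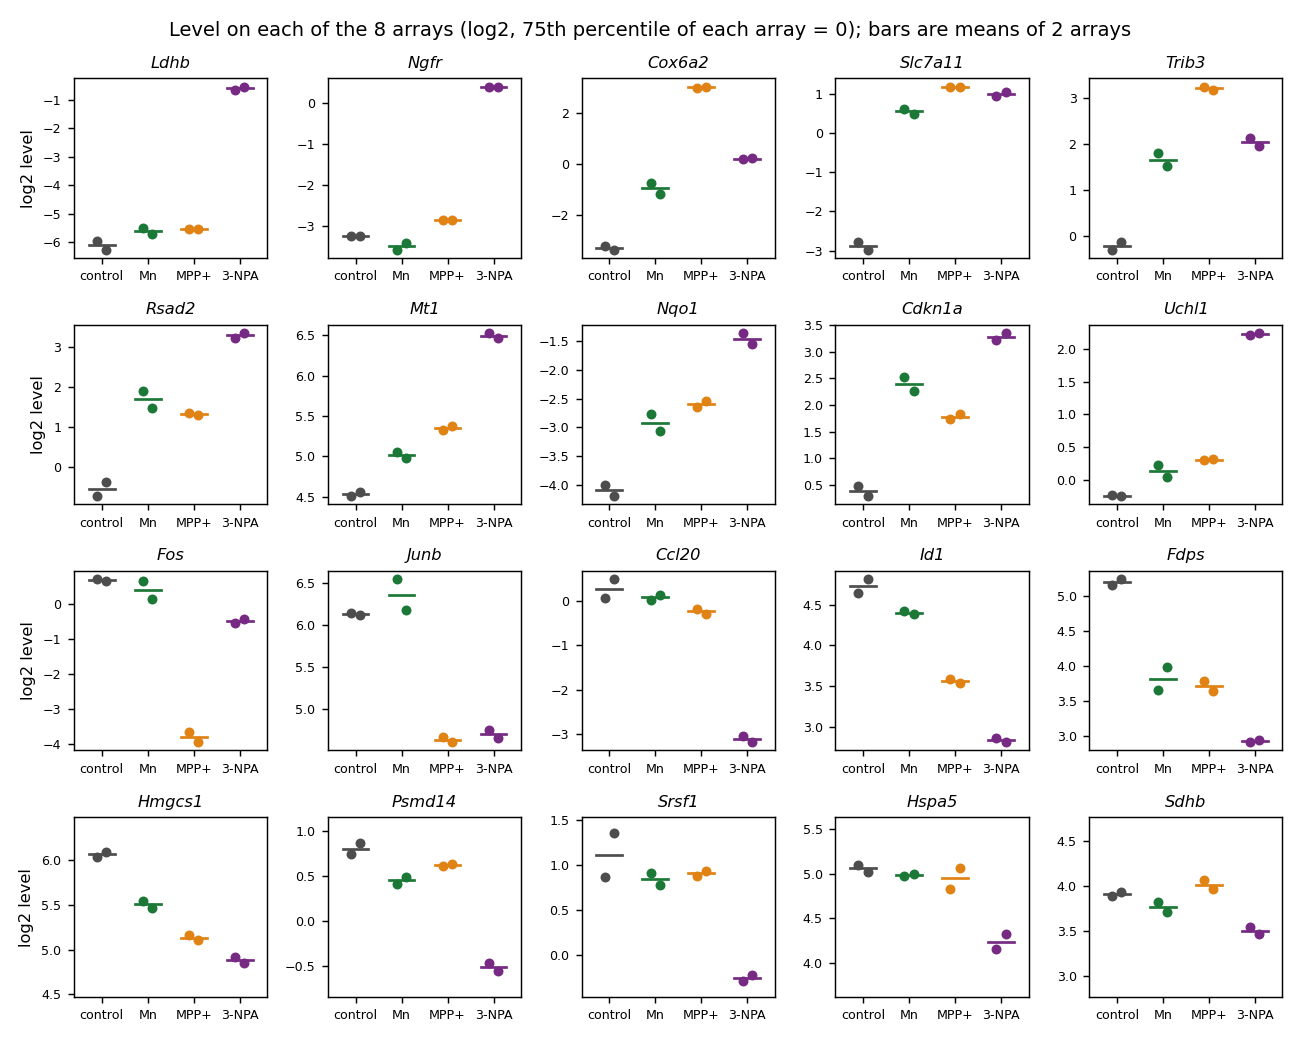
Level of 20 genes on each of the 8 arrays (vertical axes, log2 relative to the 75th percentile of each array, with a scale of its own per gene) in control, Mn, MPP+ and 3-NPA. Points are arrays and bars are means of 2 arrays; Ldhb, Ngfr, Uchl1 and Ccl20 stand apart with 3-NPA, whereas Slc7a11 is high under all 3 agents.

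Succinate dehydrogenase, the target of the toxin, had small changes at the transcript level. Sdhb, its iron-sulphur subunit, was at 3.89 and 3.94 in control and 3.54 and 3.47 with 3-NPA (-0.41 ± 0.09, adjusted p = 0.0158, -0.26 after quantile normalization). The catalytic subunit gene Sdha (0.13 ± 0.09, adjusted p = 0.305) and the membrane anchors Sdhc (-0.28 ± 0.17, adjusted p = 0.233) and Sdhd (-0.19 ± 0.09, adjusted p = 0.148) did not pass. Among its assembly factors, Sdhaf1 fell by 0.33 on the log2 scale, and Acn9 rose by 0.60 ± 0.12. The calls of Sdhb, Sdhaf1 and Acn9 were all lost without 3-NPA replicate 1 and without 3-NPA replicate 2. Spike-in scaling also ended the calls of Sdhb and Sdhaf1, and median scaling that of Acn9. The Sdhaf1 call was lost as well in the fit on only the 4 arrays, and without any one of the control or MPP+ arrays.

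The surrounding citric acid cycle and respiratory chain genes were mostly lower or not called. In the citric acid cycle list, 9 of 31 tested genes were lower and 1 was higher, with a median change of -0.18. The share called was 32.3%, against 39.9% of all genes (23.3% higher and 16.5% lower). Sucla2, a subunit of succinyl-CoA synthetase, which makes the succinate that the inhibited enzyme consumes, went from 2.32 and 2.34 to 1.12 and 1.27 (-1.13 ± 0.09, adjusted p = 0.000457). Pdhb, of pyruvate dehydrogenase, fell 2.14-fold, and Ogdh, of the 2-oxoglutarate dehydrogenase complex, fell by 0.85 on the log2 scale. Idh1, the cytosolic isocitrate dehydrogenase, was the gene called higher (0.40 ± 0.11), a call lost with median scaling (0.26) and without control replicate 1 or either one of the 3-NPA arrays. Complex I subunits had 15 of 39 lower and none higher, 38.5% of the list against 39.9% of all genes. Their median was -0.27, and the lowest adjusted p was at Ndufs8 (-0.77 ± 0.13). Complexes III to V had 10 of 47 lower and 4 higher, 29.8% of the list against 39.9% of all genes. After quantile normalization these counts were 7 and 6, and complex I had 8 lower; complex I also had 8 lower without control replicate 2. Without 3-NPA replicate 1 or 2 the number of lower complex I genes dropped from 15 to 1 or 3, that of complexes III to V to 2 or 5 and that of the citric acid cycle list to 5 or 6, and spike-in scaling left 0, 2 and 5.

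Cox6a2 was higher, while complexes III to V had 10 of 47 genes lower, 4 higher and 33 not passing. Cox6a2 encodes the form of a cytochrome c oxidase subunit found in heart and skeletal muscle. It lay at -3.19 and -3.34 in control, -0.73 and -1.18 with Mn, 2.99 and 3.02 with MPP+, and 0.18 and 0.23 with 3-NPA. The rise over control was 11.1-fold (3.47 ± 0.16, adjusted p = 9.69e-05). 3-NPA stood 2.80 ± 0.16 below MPP+ and 1.16 ± 0.16 above Mn, and no array of any agent overlapped the control.

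Genes of mitochondrial translation and protein import also tended to be lower. Of 71 tested genes for mitochondrial ribosomal proteins, 27 were lower and 3 higher (median -0.22), 42.3% of the list against 39.9% of all genes. Mrpl49 changed by -1.19 ± 0.12 and Mrps22 by -0.80 ± 0.09, whereas Mrps27 rose by 0.92 ± 0.10. By contrast, only 2 of 75 cytosolic ribosomal protein genes, Rpl7 (-0.47) and Rps14 (-0.29), were called, both lower, and their list median was 0.01 (-0.14 with median scaling); both calls were lost without 3-NPA replicate 1 and without replicate 2, and that of Rps14 also with spike-in scaling, with the mean over probes, without a filter on dim probes, in the fit on only the 4 arrays, and without any one of the control or MPP+ arrays. Among 18 mitochondrial chaperones and proteases, 6 were lower and none was higher, 33.3% of the list against 39.9% of all genes. The lower genes included Pmpca, of the peptidase that removes import signals (-0.91 ± 0.12), and Grpel1, a cofactor of the import motor (-0.69 ± 0.10). The fission GTPase gene Dnm1l fell by 0.91 and its receptor gene Fis1 by 0.72. The 27 lower mitochondrial ribosomal genes became 8 or 12 without 3-NPA replicate 1 or 2 and 7 with spike-in scaling, and the 6 lower chaperone genes became 3 in each of these settings.

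Glycolytic genes went both ways, and several abundant enzymes were lower. Ldha, the subunit partner of Ldhb, went from 6.69 and 7.16 to 6.04 and 6.03 (-0.89 ± 0.17, adjusted p = 0.00839), opposite to Ldhb. Slc16a3, a lactate exporter, fell from 6.08 and 6.20 to 5.12 and 5.09 (-1.03 ± 0.09). Pgk1 (-0.83 ± 0.10) and Pkm (-0.76 ± 0.13) fell as well. Over the list, 11 of 30 genes were lower and 7 higher, 60% of the list against 39.9% of all genes. The glucose transporter gene Slc2a1 (0.24 ± 0.09, adjusted p = 0.0712) and the hexokinase gene Hk2 (-0.04 ± 0.17, adjusted p = 0.878) did not pass. The number of lower genes dropped to 4 or 5 without 3-NPA replicate 1 or 2, and the calls of Ldha and Pkm were lost without replicate 1 and with spike-in scaling, respectively.

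Targets of the hypoxia-inducible factor, which succinate build-up is known to be able to stabilise, went in both directions. Of 37 tested, 7 were higher and 9 lower (median 0.04, and -0.10 with median scaling), 43.2% of the list against 39.9% of all genes. Vegfa, the vascular growth factor, rose 2.70-fold, from 1.45 and 1.57 to 2.92 and 2.96. Egln3, a prolyl hydroxylase of the factor, rose 1.56-fold (0.64 ± 0.09). Lox (-1.63 ± 0.11), Adm (-0.87 ± 0.08), Angptl4 (-0.86 ± 0.08) and Pdk1 (-0.86 ± 0.17) fell, as did Hif1a itself (-0.98 ± 0.19). Bnip3 did not pass (0.04 ± 0.14, adjusted p = 0.838). Oxygenases of chromatin and RNA that use 2-oxoglutarate and that succinate can inhibit had 5 of 28 higher and 4 lower, 32.1% of the list against 39.9% of all genes. These counts were 1 and 4 with median scaling, 3 and 4 with normexp correction, 2 and 1 with spike-in scaling, 2 and 3 without control replicate 1, 3 and 4 without either one of the MPP+ arrays, and 1 and 1 or 1 and 2 without 3-NPA replicate 1 or 2. The calls of Hif1a and Pdk1 were lost without 3-NPA replicate 1 and replicate 2, respectively. Without replicate 1 or 2 the 9 lower hypoxia genes became 4 or 5.

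Most tested targets of ATF4 and the amino acid response were higher. Of 48 tested members, 32 were higher and 3 lower, with a median change of 0.69, against 23.3% higher and 16.5% lower over all genes. Slc7a11, the cystine importer that supplies glutathione synthesis, was at -2.78 and -2.97 in control and at 0.94 and 1.05 with 3-NPA (14.6-fold, 3.87 ± 0.10, adjusted p = 4.78e-05). Slc7a3, a cationic amino acid transporter, rose 5.66-fold, from -0.81 on both arrays to 1.66 and 1.72. The pseudokinase gene Trib3 rose 4.78-fold, from -0.29 and -0.13 to 2.14 and 1.95. Ddit3, which encodes the stress transcription factor CHOP, rose 3.33-fold, and Asns, asparagine synthetase, 2.34-fold. Atf4 itself rose 1.52-fold (0.60 ± 0.10) and Atf3 1.46-fold (0.55 ± 0.09). The secreted factors Fgf21 (1.53 ± 0.13, normexp 0.87) and Gdf15 (1.12 ± 0.25, lost without 3-NPA replicate 1 or 2 or control replicate 2) were higher. Spike-in scaling ended the calls of Atf4 and Atf3.

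Transfer RNA synthetase genes of this list went both ways. Of 12, Sars1 (0.69 ± 0.14), Iars1 (0.68 ± 0.10) and Cars1 (0.41 ± 0.09), named here after their values were seen, were higher, and 7 did not pass. Vars1 fell by 0.89 and Tars1 by 0.32 on the log2 scale, and the Tars1 call was lost after quantile normalization (-0.12) and without 3-NPA replicate 1 and without replicate 2. The list median was 0.45 with Mn and 1.18 with MPP+, each against the same control arrays. In direct comparison, 26 of the 48 genes were lower with 3-NPA than with MPP+ and 1 was higher, against 32.5% of all genes called in either direction, while 9 were higher and 1 lower than with Mn, against 29.9%. Trib3 stood 1.17 ± 0.13 below MPP+ and Ddit3 0.73 ± 0.11 below it. Slc7a11 did not pass against MPP+ (-0.17 ± 0.10, adjusted p = 0.25). Without 3-NPA replicate 1 or 2, 22 or 25 of the genes were called higher.

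Promoters of the list were searched for the core of the amino acid response element, which ATF4 is known to bind, written TGATGNAA on either strand. The window ran from 250 bases before to 50 after each RefSeq gene start (GRCr8). A match was found for 15 of the 42 tested members with a promoter (35.7%), against 2.21% of tested genes and 3.82% of all promoters in the table. Members were listed as genes of this response, so their high share does not bear on 3-NPA. Of all genes called higher 2.72% had a match, and of all called lower 1.78%. Within the list it was present in 9 of 27 members called higher, 1 of 3 called lower and 5 of 12 that did not pass. Windows of 3 genes that rose and of Tars1, which fell, are shown so that the match can be compared between genes that moved in opposite directions; capitals mark the match.
Trib3 (chr3:161275534-161275582, minus strand): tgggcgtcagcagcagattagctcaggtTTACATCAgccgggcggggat
Nupr1 (chr1:190645921-190645984, minus strand): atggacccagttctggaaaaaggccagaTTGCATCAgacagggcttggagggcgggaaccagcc
Fgf21 (chr1:105221484-105221547, minus strand): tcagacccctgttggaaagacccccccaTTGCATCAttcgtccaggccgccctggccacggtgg
Tars1 (chr2:62114803-62114857, minus strand): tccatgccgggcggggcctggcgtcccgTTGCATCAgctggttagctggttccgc
Nupr1, a small stress-induced chromatin protein, rose 2.45-fold (1.29 ± 0.10), from -2.14 and -2.36 to -0.96 and -0.95.

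Several chaperone genes of the endoplasmic reticulum were lower. In that stress list 9 of 31 genes were lower and 2 higher, with a median of -0.31. The share called was 35.5%, against 39.9% of all genes (23.3% higher and 16.5% lower). Hspa5, which encodes the chaperone BiP, went from 5.10 and 5.02 to 4.16 and 4.33 (-0.82 ± 0.11, adjusted p = 0.00291), while the Mn arrays (4.97 and 4.99) and the MPP+ arrays (4.83 and 5.06) overlapped or lay just below the control. Calr, the chaperone calreticulin, fell by 0.88, Creld2 by 0.55, and Sec61a1, of the protein-conducting channel, by 1.44. Selenos, a component of the degradation machinery, fell by 1.40 and Derl3 by 1.62 (normexp -0.75). The genes called higher were Herpud1 (1.19 ± 0.12), an adaptor of degradation, and Dnajb9 (0.95 ± 0.10), a cochaperone of BiP. Against MPP+ 9 members were lower and 1 higher, where 32.5% of all genes were called in either direction. Against Mn these counts were 6 and 2, where 29.9% of all genes were called. The number of lower genes was 6 without 3-NPA replicate 1, without replicate 2 and with spike-in scaling, which also ended the call of Creld2.

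The endoplasmic reticulum stress element, CCAAT, any 9 bases and then CCACG, on either strand, is the promoter motif through which ATF6 is known to raise these chaperones. It occurred in 8 of the 24 tested list members with a promoter (33.3%), against 0.176% of tested genes and 0.0765% of all promoters. Since the list was made of genes of this stress, its high share does not bear on 3-NPA. Of all genes called higher 0.12% had a match, and of all called lower 0.369%. A match was present in 5 of the 7 members called lower, in neither of the 2 called higher and in 3 of 15 that did not pass. The windows of 4 genes that fell are shown, with the match in capitals (GRCr8).
Hspa5 (chr3:38452945-38453015, plus strand): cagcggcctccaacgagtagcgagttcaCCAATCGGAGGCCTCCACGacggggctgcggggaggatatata
Calr (chr19:40213117-40213181, plus strand): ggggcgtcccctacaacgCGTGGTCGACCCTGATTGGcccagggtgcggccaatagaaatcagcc
Creld2 (chr7:121789211-121789285, plus strand): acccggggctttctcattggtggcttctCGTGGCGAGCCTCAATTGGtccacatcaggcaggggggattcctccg
Derl3 (chr20:12766573-12766647, minus strand): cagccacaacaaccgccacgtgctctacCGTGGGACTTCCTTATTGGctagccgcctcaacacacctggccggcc

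Several antioxidant genes under NRF2 were raised. Of 41 tested members 17 were higher and 2 lower (median 0.15, and 0.00 with median scaling). The share called was 46.3%, against 39.9% of all genes (23.3% higher and 16.5% lower). Nqo1, a quinone reductase, was at -3.99 and -4.19 in control and at -1.36 and -1.55 with 3-NPA (6.19-fold, 2.63 ± 0.14). Srxn1, which restores oxidised peroxiredoxins, rose 3.12-fold from 2.48 and 2.46 to 4.12 and 4.10, and the glutathione transferase gene Gsta4 rose 3.28-fold. Gsta1, dim in control, was at least 3.94-fold higher (normexp change 1.82), and since alpha-class transferases are near-identical in sequence its signal may come from several genes. Osgin1 was at least 2.81-fold higher (normexp 1.00). Hmox1, haem oxygenase, did not pass (0.65 ± 0.22, adjusted p = 0.0571), and Sod2, the mitochondrial superoxide dismutase, fell 2.01-fold (-1.01 ± 0.13). In direct contrasts 17 members were higher than with Mn and 11 higher than with MPP+, and 2 and 5 were lower. These contrasts called 29.9% and 32.5% of all genes in either direction. Without 3-NPA replicate 1, and likewise without replicate 2, 9 members were called higher, and 11 with spike-in scaling.

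The metallothionein gene Mt1 was at 4.51 and 4.55 in control, 5.05 and 4.98 with Mn, 5.33 and 5.37 with MPP+ and 6.53 and 6.46 with 3-NPA, so that every agent lay above the control and 3-NPA highest (3.90-fold over control, 1.97 ± 0.08; 1.15 ± 0.08 above MPP+). Mt3, dim in control, was at least 12.7-fold higher by the bound, although its normexp change of 2.57 on the log2 scale was smaller than that. The iron exporter gene Slc40a1 rose 2.75-fold and the zinc exporter gene Slc30a1 1.78-fold, while Slc11a2, an importer of iron, fell 1.98-fold. Over the list of 28 genes, 8 were higher and 3 lower, 39.3% of the list against 39.9% of all genes. The lower genes numbered 7 with median scaling, 6 without a filter on dim probes, 2 without control replicate 2, and 1 with spike-in scaling, without control replicate 1 and without either one of the 3-NPA arrays.

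Most genes of sterol and fatty acid synthesis were lower. In the cholesterol list 20 of 32 genes were lower and 2 higher (median -0.80), 68.8% of the list against 39.9% of all genes. Fdps, farnesyl diphosphate synthase, went from 5.15 and 5.24 to 2.91 and 2.94 (4.82-fold lower, -2.27 ± 0.13, adjusted p = 0.000169). Hmgcs1, which makes the precursor of mevalonate, went from 6.03 and 6.09 to 4.91 and 4.85 (-1.18 ± 0.09). Insig1, which retains the sterol sensor in the endoplasmic reticulum and is itself a target of SREBP, fell 4.99-fold. The synthesis enzyme genes Msmo1 and Sqle fell 2.71-fold and 2.37-fold. The 2 rises were in genes of cholesterol export, Npc1, which moves it out of lysosomes, from 2.75 and 2.89 to 3.83 and 3.84, and Abcg1, which moves it out of the cell, from 1.84 on both arrays to 2.34 and 2.36 (lost with spike-in scaling).

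Of 25 fatty acid synthesis genes 15 were lower and 3 higher (median -0.63), 72% of the list against 39.9% of all genes. The desaturase genes Fads2 (-2.02 ± 0.13) and Scd2 (-1.40 ± 0.10), the elongase gene Elovl6 (-1.46 ± 0.11), Fasn, fatty acid synthase (-0.89 ± 0.08), and Srebf1, the regulator of this pathway (-0.94 ± 0.11), fell. Elovl2 and Dgat2 rose, by 1.59 ± 0.20 (normexp 0.82) and 0.63 ± 0.09 (lost with spike-in scaling). Fatty acid oxidation went both ways, with 8 of 25 lower and 7 higher, 60% of the list against 39.9% of all genes. Etfa, of the flavoprotein that takes up electrons from this pathway, fell by 1.09, while Cpt1b, of the import step, rose 2.05-fold from 0.41 and 0.40 to 1.42 and 1.46. Medians of the cholesterol list were -0.55 with Mn and -0.71 with MPP+ against the shared control. Directly, 12 of its genes were lower and 5 higher with 3-NPA than with Mn, and 6 were lower and 6 higher than with MPP+. The direct contrasts called 29.9% of all genes against Mn and 32.5% against MPP+. Spike-in scaling gave 9 lower fatty acid synthesis genes and 3 lower oxidation genes, while 5 or 6 oxidation genes were called lower without 3-NPA replicate 1 or 2.

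**Figure D3:**
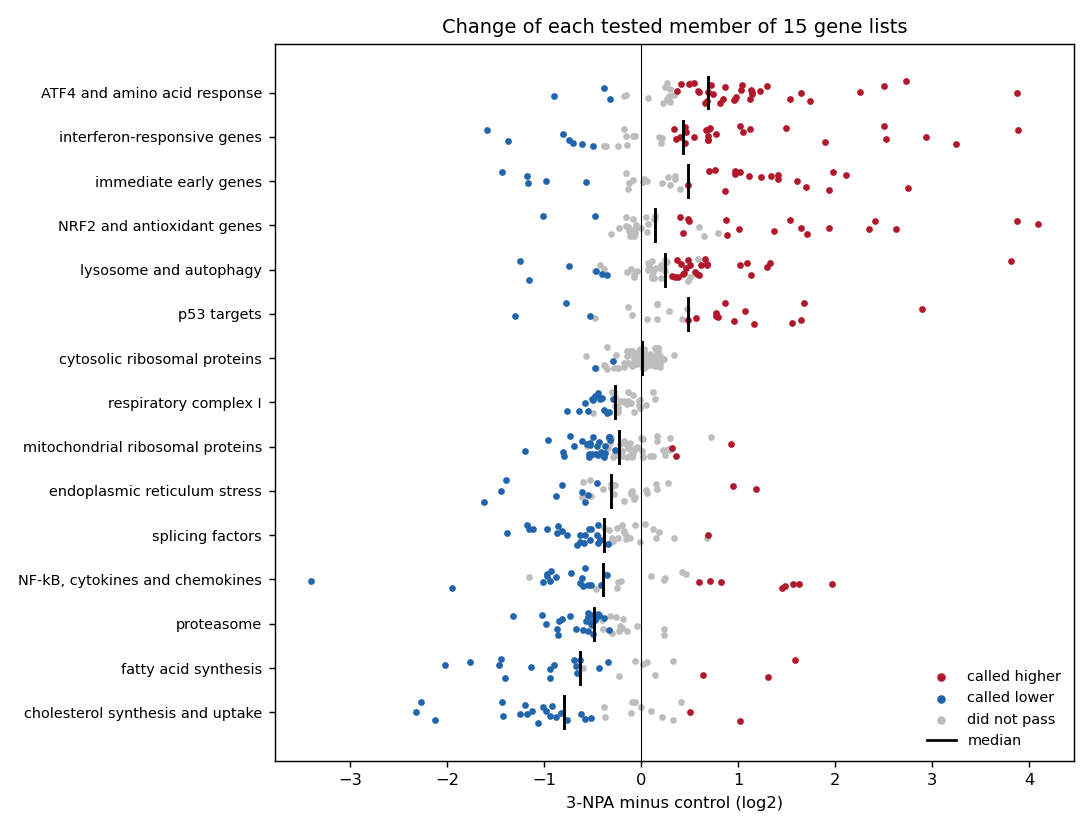
Change of each tested member of 15 gene lists (horizontal axis, log2 of 3-NPA over control). Red points were called higher, blue points lower and grey points did not pass, and black bars are list medians, which run from 0.69 for the ATF4 list to -0.80 for the cholesterol list, with cytosolic ribosomal proteins at 0.01.

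The proteasome, the protease complex that degrades ubiquitinated proteins, was lower as a group. None of 38 tested subunit and activator genes was higher and 25 were lower (median -0.49), 65.8% of the list against 39.9% of all genes. Psmd14, the deubiquitinase of the regulatory particle, went from 0.74 and 0.87 to -0.47 and -0.57 (-1.32 ± 0.09, adjusted p = 0.000335). The Mn arrays (0.41 and 0.49) and the MPP+ arrays (0.61 and 0.63) lay between these and nearer to the control. Psmb1 fell by 1.02 and Psmd9 by 0.87. Directly, 16 members were lower than with Mn and none higher, and 16 were lower than with MPP+ and 1 higher. Of all genes, 29.9% were called against Mn and 32.5% against MPP+. No member was called higher under any scaling tried, but the number called lower was 11 or 18 without 3-NPA replicate 1 or 2 and 7 with spike-in scaling.

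Among RNA splicing and ribosome assembly genes, more were called lower than higher. Of 45 splicing factor genes 22 were lower, 1 was higher and 22 did not pass (median -0.38). Calls made up 51.1% of this list, against 39.9% of all genes. Srsf1 was at 0.87 and 1.36 in control and -0.30 and -0.23 with 3-NPA (-1.38 ± 0.17), and its relatives Srsf10 (-1.15 ± 0.10), Srsf2 (-1.11 ± 0.12) and Srsf7 (-0.82 ± 0.09) also fell. Clk1, a kinase that phosphorylates these proteins, was the gene that rose (0.69 ± 0.12). Ribosome biogenesis had 15 of 42 lower, 5 higher and 22 not passing, 47.6% called against 39.9% of all genes. Ddx56 was at -1.04 ± 0.09 and Nhp2, of the pseudouridylation particles, at -0.88 ± 0.08. Against MPP+ 23 of the 42 biogenesis genes were lower and 1 higher, where 32.5% of all genes were called. Without 3-NPA replicate 1 or 2 the lower splicing factors numbered 9 or 13 and the lower biogenesis genes 9 in both cases. Spike-in scaling left 12 and 3.

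Cell cycle genes were lower in part. Among 50 DNA replication genes 16 were lower and 5 higher (median -0.24), and among 52 mitotic genes 15 were lower and 4 higher (median -0.20). The shares called in either direction, 42% and 36.5%, were near the 39.9% of all genes, of which 23.3% were higher and 16.5% lower. Tk1, thymidine kinase, went from 3.08 and 2.97 to 1.99 and 1.92 (-1.07 ± 0.09), and Rpa3, of the single-strand binding protein, changed by -1.24 ± 0.14. Cdc20, an activator of the anaphase-promoting complex, fell by 1.04, Ccnb1, cyclin B1, by 0.95 and Cenpa, the centromeric histone, by 0.86. Mki67, a proliferation marker, did not pass (0.08 ± 0.09, adjusted p = 0.528). The lower replication genes numbered 8 or 6 and the lower mitotic genes 9 in both cases without 3-NPA replicate 1 or 2, and spike-in scaling left 6 and 7.

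Several p53 targets were higher. Cdkn1a, which encodes p21, was at 0.49 and 0.29 in control and at 3.21 and 3.35 with 3-NPA by its brightest probe over all arrays (7.43-fold, 2.89 ± 0.13; chr20:7386596-7386655, rn4). A second probe at chr20:7385536-7385595 gave 0.28 (adjusted p = 0.102). That probe lay at 1.78 and 1.77 in control and at 2.17 and 1.94 with 3-NPA. The call rests on the first probe, which was the brighter only where arrays with high levels of it were averaged in. In the fit on only 4 arrays (0.28), and without 3-NPA replicate 1 or 2, the second probe stood for the gene and did not pass. With normexp correction the change was 0.17 and did not pass, and which probe it came from is not given. Mdm2, which targets p53 for degradation, rose 2.93-fold, from 0.77 and 0.75 to 2.29 and 2.33. Aen, an apoptosis nuclease, rose 3.19-fold and Sesn2 3.13-fold (normexp change 0.92). Of 26 p53 targets tested, 13 were higher and 3 lower (median 0.48), 61.5% of the list against 39.9% of all genes. Other inhibitors fell, among them Cdkn2c (-1.70 ± 0.11) and Cdkn2a (-0.71 ± 0.10). Among cell death genes, Hrk, a killer protein of the BCL2 family, was at least 3.06-fold higher (normexp 1.36), although its second probe gave 0.34, while Bad fell by 0.73 and the protective Mcl1 by 0.63. In that list 6 of 31 were higher and 7 lower, 41.9% of the list against 39.9% of all genes.

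Of 42 interferon-responsive genes 24 were higher and 7 lower (median 0.43), 73.8% of the list against 39.9% of all genes. Rsad2, which encodes the antiviral enzyme viperin, was at -0.74 and -0.40 in control, 1.90 and 1.48 with Mn, 1.36 and 1.30 with MPP+ and 3.25 and 3.37 with 3-NPA (14.7-fold over control, 3.88 ± 0.18, adjusted p = 9.69e-05). Every treated array lay above the control, and 3-NPA highest. Ifit3 rose 7.62-fold (2.93 ± 0.22), Usp18, which removes the modifier ISG15, 5.73-fold, and the exonuclease gene Isg20 3.72-fold, from -1.99 and -2.06 to -0.11 and -0.15. Cd74, the invariant chain of class II antigen presentation, was dim in control and at least 3.25-fold higher (normexp 1.30). The immunoproteasome subunits Psmb10 and Psmb8 went against the list, by -1.59 ± 0.15 and -1.37 ± 0.13. Directly, 25 members were higher and 3 lower than with MPP+, and 12 were higher and 8 lower than with Mn. These contrasts called 32.5% and 29.9% of all genes in either direction. With 3-NPA replicate 1 left out 15 members were called higher, and 16 with spike-in scaling.

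The interferon-stimulated response element, GAAA, any 2 bases and then GAAA, on either strand, is bound by interferon regulatory factors. It was present in 22 of 33 tested list members with a promoter (66.7%), against 2.82% of tested genes and 3.77% of all promoters. Since members were listed as interferon-responsive, their high share does not bear on 3-NPA. Of all genes called higher 3.12% had a match, and of all called lower 3.01%. Members called higher held the element in 13 of 17 cases, members called lower in 4 of 6 and members that did not pass in 5 of 10. Windows of 3 genes that rose and of Psmb10, which fell, are shown with the match in capitals (GRCr8).
Rsad2 (chr6:48788230-48788295, minus strand): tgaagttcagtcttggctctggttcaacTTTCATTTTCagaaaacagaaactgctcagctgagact
Isg20 (chr1:142239939-142240004, plus strand): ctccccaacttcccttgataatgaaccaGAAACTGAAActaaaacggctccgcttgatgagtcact
Ifit3 (chr1:241527254-241527319, plus strand): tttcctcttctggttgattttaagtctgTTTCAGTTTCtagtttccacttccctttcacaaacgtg
Psmb10 (chr19:50743328-50743393, minus strand): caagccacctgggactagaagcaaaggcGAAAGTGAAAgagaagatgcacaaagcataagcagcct

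NF-kB targets, cytokines and chemokines had 17 of 36 genes lower and 8 higher, 69.4% of the list against 39.9% of all genes. Their median was -0.39, against a median of 0.45 with Mn over the same control arrays. Cxcl12, a chemokine, went from 3.81 and 3.69 to 1.88 and 1.73 (-1.95 ± 0.10). The feedback inhibitor gene Nfkbia fell by 0.96 and Bcl3 by 0.97. Cxcl2, a neutrophil chemokine, changed by -0.94 ± 0.13 against control and lay 2.74 ± 0.13 below Mn. Cxcl10, which interferon also raises, went the other way, from 1.38 and 1.53 to 3.00 and 2.82 (2.73-fold). In direct contrast with Mn 26 members were lower and 3 higher, and with MPP+ 10 were lower and 10 higher. The 2 contrasts called 29.9% and 32.5% of all genes. Lower genes numbered 11 without 3-NPA replicate 1 and without replicate 2 and 10 with spike-in scaling.

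Immediate early genes, transcription factors and regulators that growth signals switch on without new protein synthesis, were more often higher than lower. Of 37 tested, 18 were higher and 5 lower (median 0.48), 62.2% of the list against 39.9% of all genes. Fosl1 rose 6.74-fold, from -2.25 and -1.86 to 0.67 and 0.72, and Etv5, an ETS factor downstream of ERK, rose 4.32-fold. Arc, a regulator of synaptic receptors, rose 3.81-fold. Fos and Junb, which form AP-1, were lower. Fos was at 0.71 and 0.65 in control, 0.66 and 0.16 with Mn, -3.67 and -3.95 with MPP+ and -0.55 and -0.41 with 3-NPA, a fall of 1.16 ± 0.19 from control and a level 3.33 ± 0.19 above MPP+. Junb went from 6.14 and 6.12 to 4.75 and 4.66 (-1.43 ± 0.13). Egr1 did not pass against control (-0.12 ± 0.16, adjusted p = 0.562) and lay 2.16 ± 0.16 above MPP+. Nr4a3 had probes that disagreed, at 1.98 and -1.59 (adjusted p = 0.0482). Against MPP+ 21 members were higher and none lower, where 32.5% of all genes were called in either direction. Rises numbered 13 or 12 without 3-NPA replicate 1 or 2.

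Signalling, adhesion and matrix genes changed in both directions, and which direction was more frequent depended in part on the filter on dim probes. Without that filter the TGF-beta, BMP, Notch and Wnt list had 18 higher and 13 lower, the list of integrins and proteases 14 and 11, and the matrix list 20 and 21. With the filter, targets and components of these 4 pathways had 20 of 35 higher and 5 lower, 71.4% of the list against 39.9% of all genes. The median of 0.67 was 0.23 with dim genes set at their bounds and 0.23 after normexp correction. Wnt4, a ligand, rose 2.70-fold from -1.72 and -1.89 to -0.37 and -0.38, Fst, an activin antagonist, 2.44-fold, and Nkd2, a Wnt antagonist, 3.54-fold. Id1 went from 4.64 and 4.81 to 2.87 and 2.81 (-1.89 ± 0.09). Rises in this list numbered 11 without 3-NPA replicate 1.

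In the list of integrins, matrix proteases and their inhibitors 17 of 27 were higher and 2 lower (median 0.61, and 0.22 with bounds). Calls made up 70.4% of this list, against 39.9% of all genes. Plat, a plasminogen activator, rose 2.32-fold, from 2.20 and 2.38 to 3.47 and 3.53. The integrin subunit gene Itga8, dim in control, was at least 4.96-fold higher (normexp change 1.82). Timp1, a protease inhibitor, fell by 0.67. Matrix proteins had 20 of 40 higher and 9 lower, 72.5% of the list against 39.9% of all genes. Spp1, osteopontin, rose 2.56-fold, and Mfap5, of microfibrils, was at least 5.21-fold higher (normexp 1.74). Sparc fell by 1.24 and Col3a1 by 1.98 (normexp -0.94). The 9 lower matrix genes became 3 or 4 without 3-NPA replicate 1 or 2 and 4 with spike-in scaling.

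Lysosome and autophagy genes were more often higher than lower, with 23 of 57 higher and 6 lower (median 0.25). Calls made up 50.9% of the list, against 39.9% of all genes. Tpp1, a lysosomal peptidase, rose 2.19-fold, from 0.48 and 0.27 to 1.55 and 1.46 and Gaa, acid alpha-glucosidase, 2.13-fold. Gabarapl1, of the ATG8 family on autophagosomes, rose 2.50-fold by its brightest probe, with a second probe at 0.67 (adjusted p = 0.0553). Atg3, the enzyme that attaches such proteins to lipid, fell 2.22-fold. Directly, 21 members were higher than with MPP+ and 19 higher than with Mn, and 7 and 3 were lower. Of all genes, 32.5% and 29.9% were called in these contrasts. The number of rises was 9 or 11 without 3-NPA replicate 1 or 2, 12 with median scaling and 8 with spike-in scaling.

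Genes linked to Huntington's and Parkinson's disease included several rises, with 10 of 20 higher and 2 lower (median 0.35). Called genes were 60% of the list, against 39.9% of all genes. Uchl1, a neuronal deubiquitinase, was at -0.24 and -0.25 in control, 0.23 and 0.05 with Mn, 0.30 and 0.32 with MPP+ and 2.22 and 2.25 with 3-NPA (5.56-fold, 2.47 ± 0.09). Mapt, the microtubule protein tau, rose 2.75-fold and Hap1, the huntingtin-associated protein, 2.03-fold. Bdnf, the neurotrophin lost from the striatum in Huntington's disease, rose 1.92-fold (0.94 ± 0.12, normexp 0.50). Park7 fell by 0.43, a call lost without 3-NPA replicate 1 and without replicate 2. The glutamate transporter gene Slc1a1 rose 2.67-fold and the calcium channel gene Cacna1h 2.15-fold, in a list of glutamate receptor, calcium entry and calpain genes with 8 of 30 higher and 1 lower, a smaller share than the 39.9% of all genes. These counts were 5 and 3 with median scaling, 7 and 11 without a filter on dim probes, and 5 and 0 without 3-NPA replicate 2. Rises in the disease list numbered 5 without 3-NPA replicate 1, without replicate 2, with median scaling and with spike-in scaling.

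Markers of cell identity were checked against the labels. Th, whose product tyrosine hydroxylase limits the rate at which dopamine is made, was well above background on all 4 arrays and did not pass (-1.84 and -1.93 in control, -1.77 and -1.78 with 3-NPA, adjusted p = 0.407). The dopamine transporter gene Slc6a3 and Foxa2 were not well above background on any of the 4 arrays, and Nr4a2 did not pass (-0.08 ± 0.12, adjusted p = 0.625). Ddc, which makes dopamine from its precursor, was dim in control and at least 2.82-fold higher (normexp 0.88). Tubb3, neuronal tubulin, rose 3.41-fold, from 0.28 and 0.37 to 2.17 and 2.03, while Map2 fell by 0.80 (lost without control replicate 1, control replicate 2 or 3-NPA replicate 2). The neuronal markers Nefl, Nefm, Syp, Snap25, Stmn2, Elavl3, Gap43 and Dcx were dim on all 4 arrays. The neuronal markers summed to 1.68 and 1.77 in control and 4.82 and 4.32 with 3-NPA on the linear scale, a sum to which Tubb3 contributed most. Nes, a progenitor filament, rose 1.49-fold, Vim did not pass (0.15 ± 0.13, adjusted p = 0.404), and Sox2, Pax6, Hes5 and Fabp7 were dim on all 4 arrays.

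Markers of other cell types gave the following summed levels, on the linear scale relative to the 75th percentile. For the counts beside them, 23.3% of all tested genes were called higher and 16.5% lower. Fibroblast and pericyte markers summed to 2.25 and 1.97 in control and 3.70 and 3.46 with 3-NPA, with 4 of 7 tested genes higher and 2 lower and Dcn, Lum, Thy1 and Rgs5 dim on all 4 arrays. Microglia and macrophage markers summed to 0.482 and 0.608 against 0.827 and 0.806, with 4 of 7 higher and Ptprc and C1qa dim. This count of 4 was 1 with median scaling, without either one of the Mn arrays and without either one of the 3-NPA arrays, and 2 with normexp correction, quantile normalization, spike-in scaling and array weights. Endothelial markers summed to 0.746 and 0.740 against 0.955 and 0.923, with 3 of 5 tested genes higher (2 with normexp correction) and none lower. Astrocyte markers (7.16 and 6.78 against 7.36 and 7.46) and oligodendrocyte markers (0.381 and 0.408 against 0.384 and 0.424) had ranges that were close or overlapping, although 3 of 6 tested oligodendrocyte markers, Mbp, Mag and Sox10, were called higher (1 with normexp correction) and none lower, with Mbp and Sox10 dim in control. The part of these markers in the changes of matrix, interferon and lysosome genes was not tested.

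**Figure D4:**
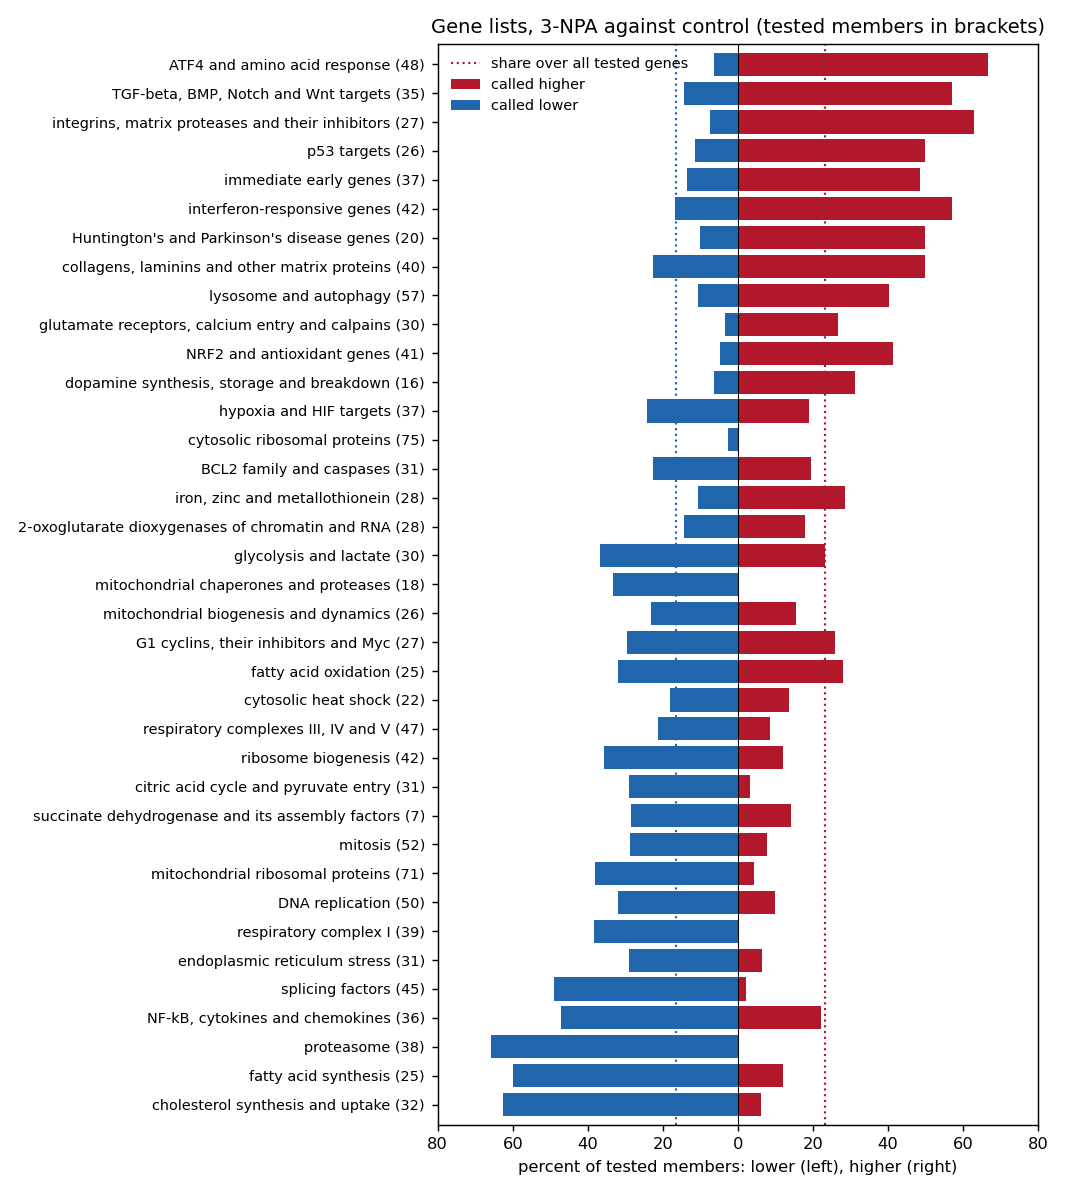
Percent of the tested members of each gene list called higher (right, red) and lower (left, blue) with 3-NPA, with the number tested in brackets. Dotted lines mark the shares over all 16418 genes, 23.3% higher and 16.5% lower; the ATF4 list reaches 32 of 48 on the right and the proteasome list 25 of 38 on the left.

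The direct contrasts show where 3-NPA differed from the other agents, whose labelled doses and times cannot be matched to it. Against MPP+ 5334 genes were called (32.5%), 3132 higher and 2202 lower with 3-NPA, and against Mn 4904 (29.9%), 2909 higher and 1995 lower. In all 3 contrasts, against control, MPP+ and Mn, 1800 genes were called higher and 1017 lower with 3-NPA. Beyond Ldhb, Ngfr and Ccl20, the T-cell antigen gene Cd7 was at -2.73 and -2.50 in control and 0.85 on both 3-NPA arrays, 3.46 ± 0.11 above control, 3.85 above MPP+ and 3.6 above Mn. Dim in control, Mro was at least 7.11-fold higher than control (normexp change 2.47) and Crybb2, a lens crystallin, at least 2.71-fold (normexp 1.29). Ncaph2, of the condensin II complex, went from 1.81 and 1.99 to 0.34 and 0.27 (-1.59 ± 0.10) and lay 1.52 below MPP+ and 1.28 below Mn. Zmat2, a zinc finger protein, changed by -1.77 ± 0.09 against control, -1.33 against MPP+ and -1.42 against Mn. Chid1 changed by -1.38 ± 0.11 against control, by -1.39 against MPP+ and by -1.35 against Mn. Called genes numbered 2442 and 2597 against MPP+, and 2304 and 2310 against Mn, without 3-NPA replicate 1 and replicate 2. Without MPP+ replicate 1 or 2 they numbered 2562 or 2377 against MPP+, and with array weights 8081.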

How the data were processed

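Total RNA (500 ng, Cy3) was hybridised to 8 single-colour arrays on 1 slide, 2 per group. Per the file headers, the deposited files hold the authors' scanner intensity per spot after Agilent Feature Extraction 11.5.1.1, background-subtracted, with probe positions on rn4. The 3-NPA arrays were extracted in a later run than the other 6. The deposited value table holds log2 values and served as an alternative. It correlated with the processed signal at 0.9966 to 0.9997 per array.

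The processed signal was taken as log2 minus the 75th percentile of each array, over non-control spots and without outlier spots. Spots of a probe were averaged, and a probe counted as well above background where more than 0.5 of its spots were. The brightest kept probe stood for each gene, and 2214 of 16418 genes had several. Symbols came from the files' names and accessions matched to RefSeq (GRCr8), by accession for 18736 and by symbol for 2578 of 30328 probes. Promoters of 9635 tested genes also came from RefSeq (GRCr8).

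limma 3.58.1 (R 4.3.3) was fitted to all 8 arrays with 4 residual degrees of freedom and Benjamini-Hochberg adjustment over all tested genes. The fit was tested on simulated data. An exact permutation test of 2 arrays against 2 cannot go below p = 0.333. The number of arrays limits the precision: the median standard error was 0.138, and the smallest called change 0.256.

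The genes named are the 15 largest rises and falls, up to 6 and 2 called members of each list by direction, a set chosen for the toxin's known targets, and the 8 in each direction with the largest change that was called against control, MPP+ and Mn alike. The members and lists were chosen with earlier results of these data known. Alternatives changed the background correction, scaling, filter, probe rule, variance model and arrays included. Some genes that this rule names are not reported here.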

Additional observations from a re-analysis of the deposited data

How the results depend on the processing

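The number called for 3-NPA against control was 6545. It was within 1.5 times of this with normexp correction, quantile or median scaling, the deposited table, 2 other filters on dim probes, other probe rules, other variance models and the fit on only 4 arrays. A change of at least 2-fold was met by 2012 genes (1541 higher, 471 lower), and by 1463 against MPP+ and 1439 against Mn. Spike-in scaling gave 3681 (2536 higher, 1145 lower), and 2509 against Mn. Without a filter on dim probes 11928 were called, 8364 of them lower, out of 26201 tested. Array weights gave 8081 against MPP+. The causes of these differences were not tested. Leaving out 1 array at a time gave 3478 to 6804 called, 2205 to 3977 higher and 1273 to 2827 lower, 2377 to 5848 against MPP+ and 2304 to 5389 against Mn. Of 335 named genes 322 were called. Of these, 218 kept their call under every alternative that tested them, the leaving out of arrays included and the 2-fold minimum aside. Rrp1b, of ribosome assembly, went from 0.51 to -0.39 without control replicate 2, where its other probe was the brighter and stood for the gene. That probe lay at -1.30 and -2.15 on the control arrays and at -1.70 and -1.68 on the 3-NPA arrays. Over all arrays its change was 0.04 (adjusted p = 0.923 in the limma fit). The Rrp1b call was also lost with normexp correction (0.06), the mean over probes, spike-in scaling and without either one of the 3-NPA arrays. With the replicate number as a block 6421 genes were called, and the calls of Hsp90ab1, Cx3cr1, Alkbh2, Rps14 and Sdhaf1 were lost. Deviations from the group means of same-numbered arrays correlated at 0.513 between Mn and 3-NPA, 0.117 between MPP+ and 3-NPA, 0.0297 between control and 3-NPA and -0.0316 to 0.113 between other groups. With 2 arrays per group and no label on what the number marks, the numbers were not taken as pairs. Signal over background limits the rises of the 2824 genes dim on both control arrays, of which 634 had a lower bound above no change.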

Other observations

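More histone genes were called lower than higher, which was noticed after their values were seen. Of 36 tested histone genes, Cenpa included, 22 were lower and 2 higher, with a median change of -0.865. Over all genes 16.5% were lower and 23.3% higher. Linker histone genes went both ways, with H1f1 lower (-2.44, normexp -1.35), H1f0 higher, and H1f5, H1fx, H1f4 and H1f8 not passing. Among the lower genes were H2bc12 (-1.74) and H3f3b (-0.87), and the higher were the replication-independent H2aj (0.40) and H1f0 (0.52). Many of these genes are near-identical in sequence, so that 1 probe may report several.

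Changes leaned differently by level. Of the 12819 genes well above background on all 4 arrays, the 4273 with the lowest mean levels had 990 higher and 666 lower, the 4273 in the middle 927 and 948, and the 4273 with the highest levels 515 and 1015, with a median change of -0.11 in the last group.

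In 24 genes with several probes, probes were called in opposite directions. Among them, chosen after their values were seen, were Srsf3 (0.47 and -1.18), a splicing factor, Vamp4 (1.01 and -0.69), of vesicle fusion, and Hnrnpa1 (0.69 and -0.52), an RNA-binding protein.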
